A study of Mus musculus with 21 samples.

Results

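The genes described here encode the factors that start protein synthesis and those that extend the growing chain. They were taken by name: symbols that begin with Eif or Eef followed by a digit, without symbols ending in Rik, -ps or os. Of the 24984 genes in the deposited table of nascent RNA counts, 69 met the rule, 55 of them Eif (initiation) and 14 Eef (elongation) genes. The assay was BrU-seq, in which living cells build bromouridine into new RNA and only the labelled RNA is sequenced, so that counts over introns and exons follow ongoing transcription more closely than the stock of mRNA. All cultures were cortical cells of CD1 mice at day 17 in vitro and shared a 30 min pretreatment and a pulse of 2 mM bromouridine in the final 30 min. MM401 at 25 µM, an inhibitor of the contact between the histone H3 lysine 4 methyltransferase MLL1 and WDR5, or its solvent DMSO was given as pretreatment. Bicuculline at 40 µM, a blocker of GABA-A receptors that raises network activity, or water followed. There were 7 groups: DMSO with water for 4 h, DMSO with bicuculline for 1 h and for 4 h, MM401 with water for 1 h and for 4 h, and MM401 with bicuculline for 1 h and for 4 h. Each had 3 libraries, called biological replicates of mixed sex in the study's text, except that MM401 with water for 4 h entered with 2. A DMSO group with water for 1 h was not analysed here, so both DMSO responses are set against water at 4 h, and at 1 h the bicuculline and the time of treatment cannot be told apart in that arm.

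As background, translation starts when eIF2 brings the initiator tRNA to the small ribosomal subunit, eIF1, eIF1A and eIF3 hold the subunit open for scanning, and the eIF4 proteins recruit it to the capped end of an mRNA. The eIF2alpha kinases lower initiation on most mRNAs by blocking the recycling of eIF2 through its exchange factor eIF2B, and the eIF4E-binding proteins lower it by occupying the cap-binding protein. During elongation eEF1A delivers aminoacyl-tRNAs, the eEF1B complex recharges eEF1A with GTP, and eEF2 moves the ribosome along. In neurons these steps are known as control points for activity-dependent protein synthesis, and eEF2 kinase is itself activated by calcium and calmodulin.

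The 20 libraries used held 49886348 to 87939384 counts in genes (median 62996146). The 1 library left out, replicate 3 of MM401 with water for 4 h, held 316741 counts, 0.503% of that median. The common biological coefficient of variation over the 20 libraries was 8.77%. Replicates 2 and 3 of DMSO with water for 4 h held the lowest shares of long genes: 57.97% and 56.95% of their counts lay in genes of at least 100 kb, against 58.45 to 63.48% in the other 18 libraries. Defining markers of neurons and astrocytes were present in every group, with all 6 genes of each list tested. Summed levels of the inhibitory neuron markers were 337 to 394 CPM in the water libraries and 516 to 699 CPM in the bicuculline libraries, and those of the excitatory markers were 659 to 831 CPM and 829 to 1170 CPM. Markers of the oligodendrocyte lineage summed to 160 to 187 CPM in water and 188 to 216 CPM in bicuculline. Those of neurons in general summed to 4650 to 5830 and 5510 to 7370 CPM, and those of astrocytes to 1070 to 1580 and 1300 to 1650 CPM. Microglial markers summed to 25.1 to 41.9 CPM with Tmem119 too low to test, and endothelial and mural markers to 6.57 to 11.7 CPM with Cldn5, Kcnj8 and Vtn too low to test. The part of these shifts in the results below was not tested, and in such bulk cultures fewer cells of a type and less RNA per cell cannot be told apart.

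Of the 69 members, 65 passed the filter on low counts (52 initiation and 13 elongation genes), among 16959 genes that did so in all. Eif4e1b, a cap-binding relative of eIF4E, had at most 2 counts in any library. Eif3j1 and Eif3j2, which encode an eIF3-associated subunit, share their whole span on 1 strand and had 2 and 0 counts over the 20 libraries. Eef1akmt4, a lysine methyltransferase gene, lies wholly inside the readthrough gene Eef1akmt4-ece2 on the same strand and had 0. None of the 1194 genes of the table that lie wholly inside another gene of the same strand had any count, whereas 664 of 730 that lie inside a gene of the opposite strand alone had some. Values for Eef1akmt4-ece2 therefore come from the part of its span that neither Eef1akmt4 (21.2% of the span) nor Ece2 (46.8%) covers. Eef1a1, Eif4a1 and the X and Y copies Eif2s3x and Eif2s3y have near-identical copies elsewhere in the genome, and their counts are uncertain because the handling of reads with several positions is not given in the sources used here. Eef1b2, Eef2, Eif4a2, Eif4g1 and Eif5 host small nucleolar RNAs in their introns.

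Levels, in CPM (counts scaled to a common TMM-scaled library total) per kb of gene span, differed widely between members. The median was 1.39 CPM per kb over the initiation genes and 0.811 over the elongation genes, against 0.592 over all genes tested. Eef1a1, the ubiquitous form of eEF1A, was highest at 17.48 CPM per kb, followed by Eif4a2, an RNA helicase of the cap-binding complex, at 11.92. Eif4g2, a scaffold without the cap-binding arm, reached 9.06 and Eif1, a factor of start codon choice, 8.01. Eef1akmt4-ece2 stood at 0.066 CPM per kb of its whole span and at 0.206 per kb of the 10980 bp that no other gene of its strand covers, beside 0.149 in Eef1akmt3. The lowest initiation gene was Eif4ebp1 at 0.34. Most members span short stretches of genome: the median was 17445 bp against 23068 bp over all genes tested, and Eif4g3, at 213625 bp, was the only member of at least 100 kb. Spread between replicates was lower than for genes in general in the initiation class, with a median within-group coefficient of variation of 6.98% against 9.63% over all genes, and was 10.9% in the elongation class. It ran from 3.26% in Eif2b3 to 39.9% in Eef1b2, and among initiation genes it was highest in Eif3g at 29.1%.

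Summed over each class and library, initiation genes came to 2249 to 2385 CPM, and elongation genes, whose sum turns on Eef1a1, to between 232.1 and 333 CPM. In DMSO with water for 4 h the initiation sum was 2294 ± 17.8 CPM (SD, n = 3), and with bicuculline it was 2319 ± 33.2 CPM at 1 h and 2381 CPM in each of the 3 libraries at 4 h. For elongation the same groups gave 276.2 ± 22.4, 278 ± 48.6 and 275.3 ± 40.7 CPM (SD, n = 3). The ratio of the class sums ran from 7.05 in replicate 2 of DMSO with bicuculline for 1 h to 10.26 in replicate 1 of DMSO with bicuculline for 4 h. Both extremes are DMSO libraries with bicuculline, and within each of those groups the ratio varied by more than it did between the means of any 2 groups.

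**Figure D1:**
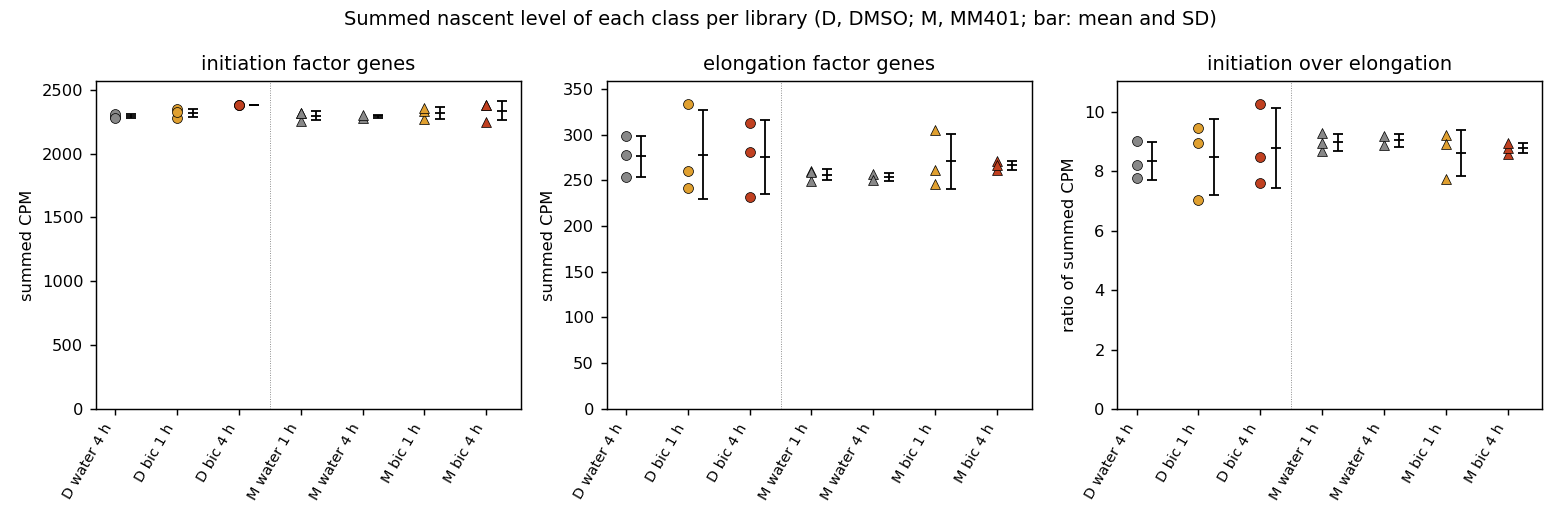
Summed CPM of the initiation genes (left), of the elongation genes (middle) and their ratio (right) in each of the 20 libraries, by group (D, DMSO; M, MM401; bic, bicuculline); points are libraries, and bars are the mean and SD. The initiation sums lie between 2249 and 2385 CPM throughout, and the elongation sums vary most among the DMSO bicuculline libraries, from 232.1 to 333 CPM.

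Upstream sequence was available from RefSeq (build GRCm38.p6) for 53 of the 69 members. The 250 bases before the start nearest to the table's gene start are shown for 4 members on which the results turn: Eif5a and Eif2ak3, the initiation genes with the largest 1 h rise in DMSO, Eef1a2, the neuronal eEF1A gene that fell at 4 h, and Eef2. They are written 5′ to 3′ on the gene's own strand, and capitals mark matches, on either strand, to CCAAT, to the AP-1 motif TGANTCA, to the core TGACG of the cAMP response element and to the E-box CACGTG. Eif5a (chr11:69921959-69922208, minus strand) and Eef1a2 (chr2:181157016-181157265, minus strand) hold none of these letters in the window, Eif2ak3 (chr6:70844265-70844514, plus strand) holds 6 CCAAT matches and 1 AP-1 match, and Eef2 (chr10:81176381-81176630, plus strand) holds 1 E-box that overlaps 2 TGACG matches. Eif5a has 6 annotated promoters, of which 1 is shown.
Eif5a: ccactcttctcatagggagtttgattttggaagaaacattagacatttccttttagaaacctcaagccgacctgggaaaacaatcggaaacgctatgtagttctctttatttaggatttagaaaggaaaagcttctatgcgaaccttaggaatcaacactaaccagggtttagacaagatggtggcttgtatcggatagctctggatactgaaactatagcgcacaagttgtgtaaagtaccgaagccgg
Eif2ak3: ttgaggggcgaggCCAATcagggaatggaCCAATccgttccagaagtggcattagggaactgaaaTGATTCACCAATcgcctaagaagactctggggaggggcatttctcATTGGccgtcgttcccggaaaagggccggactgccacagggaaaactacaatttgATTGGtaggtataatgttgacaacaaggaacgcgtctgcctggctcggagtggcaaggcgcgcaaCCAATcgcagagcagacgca
Eef1a2: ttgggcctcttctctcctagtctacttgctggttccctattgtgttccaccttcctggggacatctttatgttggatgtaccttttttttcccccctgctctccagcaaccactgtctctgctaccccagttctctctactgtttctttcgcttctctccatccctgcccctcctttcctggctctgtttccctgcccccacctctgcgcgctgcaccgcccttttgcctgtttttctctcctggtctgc
Eef2: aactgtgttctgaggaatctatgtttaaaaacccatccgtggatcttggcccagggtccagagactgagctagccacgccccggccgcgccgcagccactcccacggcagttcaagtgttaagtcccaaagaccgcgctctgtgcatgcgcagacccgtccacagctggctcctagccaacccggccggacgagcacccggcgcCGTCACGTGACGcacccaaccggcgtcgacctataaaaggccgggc
Over the 53 members, TGACG occurred in 22 windows (41.5%), against 17.7% of all 32817 RefSeq promoter windows of that length and 24.9% of the windows of 13056 tested genes. The E-box occurred in 11 members (20.8%), against 6.02% of all promoter windows and 8.06% for tested genes. CCAAT was found in 15 members (28.3%), against 33.8% of all windows and 36% for tested genes. The AP-1 motif was found in 4 (7.55%), against 6.75% of all windows and 4.75% for tested genes. Eef1akmt4 and Eef1akmt4-ece2 start at the same place, so their shared window is counted for both. Counted once, TGACG was in 21 of 52 windows (40.4%), the E-box in 10 (19.2%) and CCAAT in 14 (26.9%). E-box and TGACG matches can share bases, as in Eef2. These are matches of letters and do not show binding.

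Bicuculline shifted members of both classes in either direction, and most members called were lower after 1 h. A gene was called when its edgeR quasi-likelihood p-value, adjusted over all genes of the comparison by Benjamini-Hochberg, was under 0.05. In DMSO after 1 h, 6 members rose and 21 fell of 65, where 44.6% of all genes were called (20% higher and 24.5% lower). After 4 h, 9 rose and 17 fell, where 49.2% of all genes were called (23.7% higher and 25.5% lower). Under MM401, 9 rose and 16 fell after 1 h (39.9% of all genes called, 18.1% higher and 21.8% lower). After 4 h under MM401, 13 rose and 15 fell (44.6% of all genes called, 23% higher and 21.7% lower). As shares of the 65, 41.5% and 40% were called in DMSO and 38.5% and 43.1% under MM401. The share higher was 9.23% and 13.8% in DMSO and 13.8% and 20% under MM401, each below that over all genes. The share lower was 32.3% against 24.5% over all genes at 1 h in DMSO. In the other comparisons it was near that over all genes: 26.2%, 24.6% and 23.1% against 25.5%, 21.8% and 21.7%. No difference from the background was tested. These splits move with the scaling: they became 9 higher and 16 lower with RLE factors for DMSO at 1 h, 12 and 13 with DESeq2 for DMSO at 4 h, and 13 and 15 with RLE factors for MM401 at 1 h. With plain library totals, which shift the median of all genes by up to -0.277, they became 4 and 34, 4 and 40, 3 and 29, and 8 and 15. The median of all members was then -0.306, -0.319, -0.308 and -0.084 against -0.229, -0.301, -0.214 and -0.059 over all genes. In either direction, the fits named with RLE factors or DESeq2 called 7349, 8316 and 6695 of all genes. Plain library totals called 8654, 9687, 7817 and 6932.

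Initiation and elongation genes both held members that rose and members that fell, and the difference between the classes was not tested. Of 52 initiation genes, 5 rose and 16 fell after 1 h in DMSO, and of 13 elongation genes 1 rose and 5 fell. At 4 h in DMSO the counts were 8 and 12 against 1 and 5, under MM401 at 1 h 7 and 12 against 2 and 4, and under MM401 at 4 h 12 and 11 against 1 and 4. The median log2 fold change of the initiation genes was -0.10, -0.05, -0.07 and -0.01 in these 4 comparisons, and that of the elongation genes -0.16, -0.01, -0.10 and -0.08, beside -0.04, -0.02, -0.00 and 0.02 over all genes. Leaving out 1 library at a time moved the elongation median in DMSO between -0.18 and 0.02 at 1 h and between -0.18 and 0.13 at 4 h, which takes in the initiation median both times. Under MM401 the ranges were -0.15 to -0.00 for initiation and -0.11 to -0.07 for elongation at 1 h, which overlap, and -0.02 to 0.03 and -0.12 to -0.08 at 4 h, which do not. Such ranges come from fits that share most of their libraries and do not measure the uncertainty of a class median. Those under MM401 at 4 h rest on 2 water libraries. The elongation median above 0 at 1 h in DMSO came without replicate 3 of DMSO with bicuculline for 1 h. The count of 27 members called in DMSO at 1 h fell to 14 without replicate 2 of DMSO with water for 4 h. That of 28 under MM401 at 4 h fell to 16 without replicate 1 of MM401 with water for 4 h, which leaves 1 library in that group, assumed to vary like the other groups.

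**Figure D2:**
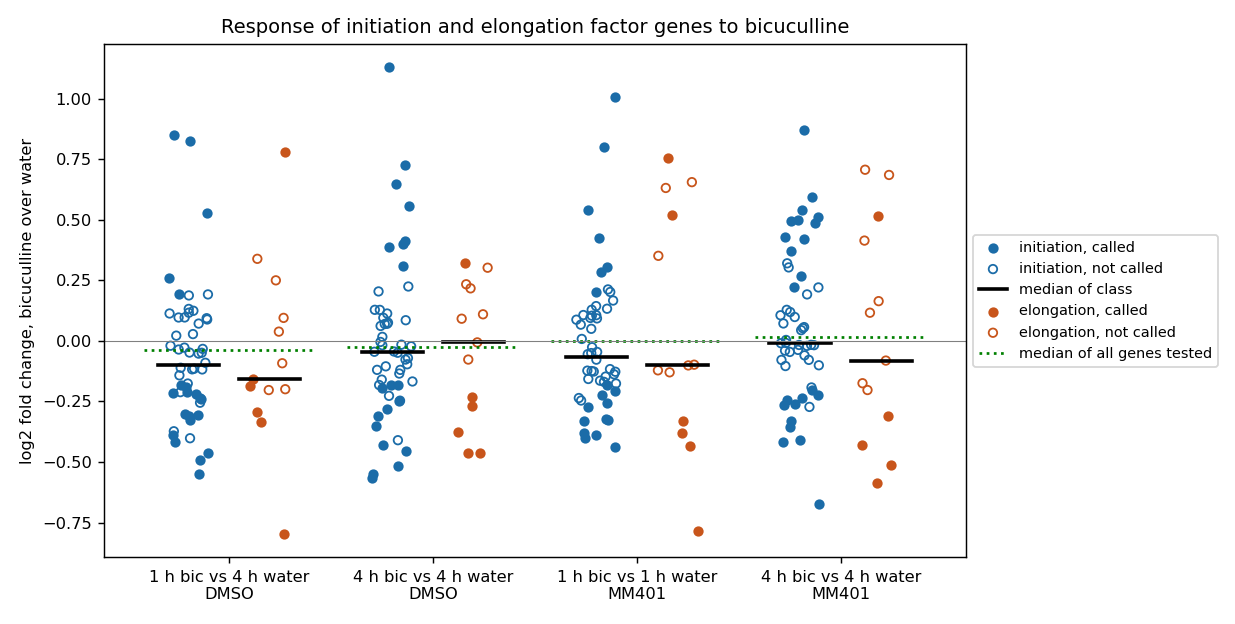
Log2 fold change of each tested member in the 4 comparisons of bicuculline with water, for the 52 initiation genes (blue) and the 13 elongation genes (orange); filled points were called, open points were not, black bars are class medians, and dotted lines are the median of all genes tested. Both classes spread to either side of 0, with class medians between -0.16 and -0.01.

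The DMSO and MM401 arms share no library, but same-numbered libraries of the arms deviated together in some groups (correlations of 0.238, 0.269 and 0.302 for bicuculline at 4 h), so the arms are not independent of each other. After 1 h, 16 members were called in both arms, 59.3% of those called in DMSO and 64% of those called under MM401, against 69.1% and 77.1% over all genes. Higher in both were Eif5a, Eif1a, Eif2ak3 and Eef1akmt4-ece2, and 12 members were lower in both: Eif2a, Eif2b2, Eif2b3, Eif2d, Eif2s1, Eif3i, Eif3m, Eif4e3, Eif5b, Eef1akmt3, Eef1e1 and Eef1g. At 4 h, 19 members were called in both arms (73.1% and 67.9%, against 68.3% and 75.2% over all genes). These were 8 that rose, all initiation genes (Eif1ax, Eif2ak3, Eif2ak4, Eif2b3, Eif2s2, Eif4e, Eif4ebp1 and Eif5a), and 11 that fell (Eif2a, Eif2ak1, Eif2d, Eif3i, Eif3m, Eif4b, Eif4e3, Eef1a2, Eef1akmt1, Eef1e1 and Eef1g). Over all genes, 45 of 5219 shared calls at 1 h and 11 of 5695 at 4 h went in opposite directions in the 2 arms. Among members, 0 of the 16 at 1 h and 0 of the 19 at 4 h did so. Of these shared calls, 7 of the 16 at 1 h (Eif2ak3, Eif3m, Eif5a, Eif5b, Eef1akmt3, Eef1akmt4-ece2 and Eef1e1) and 8 of the 19 at 4 h (Eif2ak3, Eif2ak4, Eif2d, Eif3m, Eif4e3, Eef1a2, Eef1e1 and Eef1g) held in both arms in all 7 alternative settings and in every fit that left out 1 library of the comparison. Within each comparison, 9 of 27 calls (DMSO, 1 h), 13 of 26 (DMSO, 4 h), 12 of 25 (MM401, 1 h) and 13 of 28 (MM401, 4 h) held in all of those fits. Not every loss of a call in a single member is listed below. Of the member results not called, 53 became calls with plain library totals, and such gains are given below only where a gene's lack of a call is described.

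**Figure D3:**
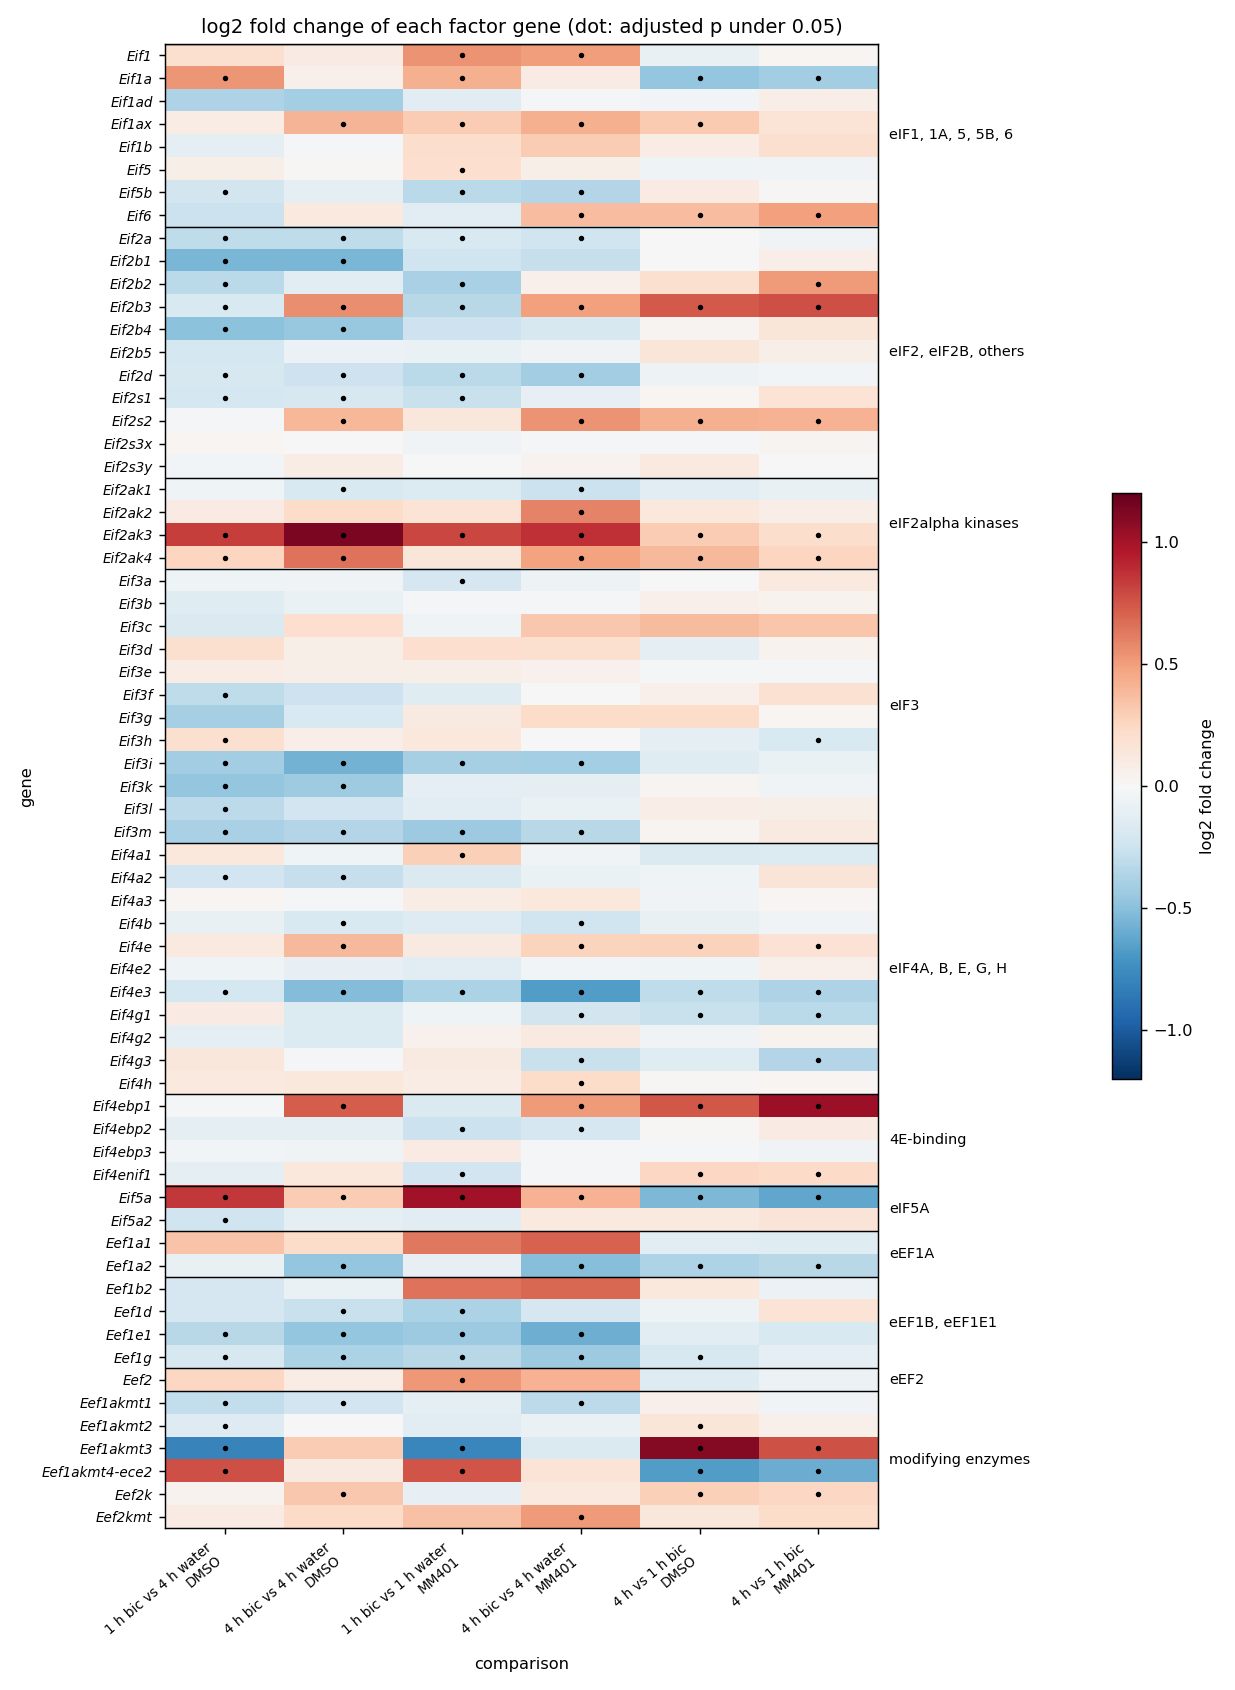
Log2 fold change of the 65 tested members (rows, grouped by role) in 6 comparisons (columns): bicuculline against water in DMSO at 1 h and 4 h, the same under MM401, and 4 h against 1 h of bicuculline in each arm; a dot marks a call. Eif2ak3 is high in all 4 bicuculline columns (0.80 to 1.13), Eif5a is higher at 1 h (0.85 and 1.01) than at 4 h, and Eif4e3 is low in all 4 (-0.67 to -0.21).

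Eif5a encodes the hypusine-bearing factor named for initiation but known for relieving stalled ribosomes during elongation and termination, and it showed the largest rise of any member at 1 h in both arms. The gene lies at chr11:69916711-69921958 on the minus strand (mm10). Its level was 6.72, 8.45 and 8.09 CPM in DMSO with water for 4 h, 12, 15.6 and 14.5 CPM with bicuculline for 1 h, and 8.15, 9.72 and 10.9 CPM with bicuculline for 4 h. The 1 h libraries lie wholly above the water libraries, and those at 4 h overlap them. The change on the log2 scale was 0.85 ± 0.11 (SE, edgeR adjusted p = 1.47e-06) at 1 h and 0.31 ± 0.11 (edgeR adjusted p = 0.0217) at 4 h. Under MM401 the level was 6.89, 7.08 and 7.5 CPM with water for 1 h and 13.9, 14 and 15.2 CPM with bicuculline for 1 h, a log2 difference of 1.01 ± 0.11 (edgeR adjusted p = 1.71e-07). At 4 h it was 7.14 and 6.82 CPM with water (n = 2) and 9.11, 9.65 and 9.24 CPM with bicuculline, a difference of 0.42 ± 0.12 (edgeR adjusted p = 0.009). Both 4 h calls were lost with plain library totals (0.03, adjusted p = 0.877 in DMSO and 0.34, adjusted p = 0.0715 under MM401). In DMSO the 4 h call was also lost without replicate 3 of bicuculline for 4 h (0.20, adjusted p = 0.158), without replicate 1 of water (0.22, adjusted p = 0.111) and with all 21 libraries (0.29, adjusted p = 0.0959). Under MM401 it was lost without replicate 2 of water for 4 h (0.35, adjusted p = 0.0944). Its paralogue Eif5a2 was called lower at 1 h in DMSO (-0.24 ± 0.10, adjusted p = 0.0489). That call was lost in 5 of the 7 settings, among them DESeq2 (-0.20, adjusted p = 0.0897), and in 4 of the 6 fits without 1 library (adjusted p from 0.127 to 0.215): replicates 2 and 3 of bicuculline for 1 h and of water. Eif5a2 was not called in the other 3 comparisons (-0.12 to 0.12), save with plain library totals at 4 h in DMSO (-0.40, adjusted p = 0.00868) and at 1 h under MM401 (-0.33, adjusted p = 0.033).

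All 8 genes for scanning and subunit joining were tested. After 1 h, 1 rose and 1 fell in DMSO and 4 rose and 1 fell under MM401; after 4 h, 1 rose and 0 fell in DMSO and 3 rose and 1 fell under MM401. Over all genes, 20% rose and 24.5% fell at 1 h in DMSO, 23.7% and 25.5% at 4 h in DMSO, 18.1% and 21.8% at 1 h under MM401 and 23% and 21.7% at 4 h under MM401. Eif1a, which encodes a form of the scanning factor eIF1A, rose at 1 h. It stood at 20, 21.3 and 22.1 CPM in DMSO with water, 32.7, 29.2 and 29.5 CPM with bicuculline for 1 h, and 20.9, 24.2 and 21 CPM with bicuculline for 4 h. The 1 h libraries lie apart from the rest, with log2 fold changes of 0.53 ± 0.07 (edgeR adjusted p = 1.05e-06) at 1 h and 0.06 ± 0.07 (adjusted p = 0.464) at 4 h. The 4 h value was called higher with the length correction (0.16, adjusted p = 0.033) and lower with plain library totals (-0.22, adjusted p = 0.0472). Under MM401 the 1 h difference was 0.43 ± 0.07 (adjusted p = 1.97e-05), lost with plain library totals (0.22, adjusted p = 0.0568). The X-linked Eif1ax, which encodes a near-identical protein, followed another course: it was called at 4 h in DMSO (0.41 ± 0.08, adjusted p = 0.00014) and not at 1 h (0.09 ± 0.08, adjusted p = 0.348), with the 4 h call lost under plain library totals (0.13, adjusted p = 0.278). Under MM401 it rose at 1 h (0.30 ± 0.08, adjusted p = 0.00348; 0.09, adjusted p = 0.497 with plain library totals) and at 4 h (0.43 ± 0.09, adjusted p = 0.000446).

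Eif1 read 13, 18.3 and 18.6 CPM in DMSO with water, so that replicate 1 stood below the others, and 20.7, 20 and 16.2 CPM with bicuculline for 1 h, a difference not called (0.19 ± 0.12, edgeR adjusted p = 0.214). With the length correction it was called higher in DMSO at 1 h (0.33, adjusted p = 0.00239) and 4 h (0.24, adjusted p = 0.0186). Under MM401 it rose from 13.1, 13.2 and 13.6 CPM to 18.1, 18.3 and 21.4 CPM at 1 h (0.54 ± 0.12, adjusted p = 0.00123; 0.33, adjusted p = 0.0744 with plain library totals). At 4 h under MM401 it rose by 0.50 ± 0.14 (adjusted p = 0.00558; 0.41, adjusted p = 0.079 without replicate 1 of MM401 with water for 4 h). Eif5, the GTPase activator of eIF2, was called higher under MM401 at 1 h (0.20 ± 0.07, adjusted p = 0.0251), and its direction turned with plain library totals (-0.01, adjusted p = 0.946). That call was also lost with all 21 libraries (0.20, adjusted p = 0.166) and without any of 3 libraries (adjusted p up to 0.0901). With the length correction Eif5 was called higher in DMSO at 1 h (0.17, adjusted p = 0.0196) and 4 h (0.15, adjusted p = 0.0431). At 4 h in DMSO plain library totals called Eif5 lower (-0.26, adjusted p = 0.017). Eif6 rose under MM401 at 4 h against water (0.37 ± 0.13, adjusted p = 0.0241). That call was lost with all 21 libraries, with plain library totals and without any of 3 libraries (adjusted p up to 0.315). Eif1ad, which overlaps Banf1 on the opposite strand, was not called in these 4 comparisons (-0.41 to -0.02), but was lower in DMSO with plain library totals at both times (-0.57, adjusted p = 0.0428; -0.70, adjusted p = 0.0137), with the replicate block at 4 h (-0.41, adjusted p = 0.0354) and in 1 fit without a library at each time. Eif5b, the GTPase that joins the ribosomal subunits, fell at 1 h in both arms (-0.22 ± 0.06, adjusted p = 0.00447 in DMSO; -0.32 ± 0.06, adjusted p = 0.000167 under MM401) and at 4 h under MM401 (-0.36 ± 0.07, adjusted p = 0.000148). At 4 h in DMSO it was called lower with the length correction (-0.24, adjusted p = 0.00102) and with plain library totals (-0.39, adjusted p = 3.39e-05). It was also called lower there without replicate 2 of water (-0.18, adjusted p = 0.0399).

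The genes of eIF2, its exchange factor eIF2B and the alternative tRNA carriers held calls downward alone at 1 h in the fit of 20 libraries. Of 11 tested, 0 rose and 7 fell in DMSO, where 24.5% of all genes fell, and 0 rose and 5 fell under MM401, where 21.8% of all genes fell. Without replicate 2 of DMSO with water for 4 h the 7 became 1, without replicate 3 of that group or of DMSO with bicuculline for 1 h they became 4, and with all 21 libraries 3. Under MM401 the 5 became 3 without replicate 2 of MM401 with water for 1 h and with all 21 libraries. DESeq2 and the length correction called Eif2s2 higher at 1 h under MM401 (0.16, adjusted p = 0.0491; 0.18, adjusted p = 0.0161). At 4 h 2 rose in each arm and 5 and 2 fell, where 23.7% of all genes rose and 25.5% fell in DMSO and 23% and 21.7% under MM401. The median log2 fold change at 1 h was -0.21 in DMSO and -0.24 under MM401, beside -0.04 and -0.00 over all genes. Eif2b3, at chr4:117019401-117086852, encodes the gamma subunit of eIF2B and turned direction between the times. In DMSO it was at 30.3, 31.3 and 29.3 CPM with water, 27, 27.7 and 25.4 CPM with bicuculline for 1 h, and 46.5, 42.2 and 44.9 CPM with bicuculline for 4 h. No 2 of these groups overlap. On the log2 scale it changed by -0.18 ± 0.05 (edgeR adjusted p = 0.00706) at 1 h and 0.55 ± 0.05 (adjusted p = 1.19e-08) at 4 h. Under MM401 the levels were 31.5, 32.7 and 32.3 CPM with water for 1 h and 26, 25.4 and 25.4 CPM with bicuculline for 1 h (-0.33 ± 0.05, adjusted p = 3.14e-05). At 4 h they were 30.9 and 31.1 CPM with water (n = 2) and 43.2, 43.7 and 44.1 CPM with bicuculline (0.49 ± 0.06, adjusted p = 7.3e-07). With all 21 libraries the calls at 1 h were lost in both arms (-0.16, adjusted p = 0.355 and -0.33, adjusted p = 0.0575), as was that at 4 h under MM401 (0.36, adjusted p = 0.0506). The 1 h call in DMSO was also lost without replicate 3 of bicuculline for 1 h (-0.13, adjusted p = 0.0861) and without replicate 2 of water (-0.13, adjusted p = 0.09).

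Among the other eIF2B genes, Eif2b1 and Eif2b4 fell in DMSO at both times. Eif2b1, for the regulatory alpha subunit, read 7.98, 11.6 and 9.94 CPM in DMSO with water, 6.78, 7.93 and 5.38 CPM with bicuculline for 1 h, and 5.66, 7.61 and 6.96 CPM with bicuculline for 4 h. It fell by 0.55 ± 0.15 on the log2 scale at both times (edgeR adjusted p = 0.00614 at 1 h and 0.00557 at 4 h), and the 1 h call was lost without replicate 2 of DMSO with water for 4 h (-0.39, adjusted p = 0.0594). Eif2b4, the delta subunit, fell by 0.49 ± 0.14 at 1 h (adjusted p = 0.00851) and by 0.46 ± 0.14 at 4 h (adjusted p = 0.0119) in DMSO. Without that same library its values were -0.38 (adjusted p = 0.0667) and -0.39 (adjusted p = 0.0531). Without replicate 1 of bicuculline they were -0.34 (adjusted p = 0.0684) at 1 h and -0.35 (adjusted p = 0.075) at 4 h. Under MM401 neither gene was called at either time (-0.27 to -0.19), save Eif2b4 at 1 h with plain library totals (-0.45, adjusted p = 0.0274). Eif2s1, which encodes the eIF2alpha subunit that the kinases phosphorylate, fell at 1 h in both arms (-0.22 ± 0.07, adjusted p = 0.0166; -0.27 ± 0.07, adjusted p = 0.00401) and at 4 h in DMSO (-0.19 ± 0.07, adjusted p = 0.0265). Both DMSO calls were lost with DESeq2 (-0.17, adjusted p = 0.0557 and -0.17, adjusted p = 0.0549) and with all 21 libraries (-0.19, adjusted p = 0.119 and -0.21, adjusted p = 0.071). That at 1 h was lost with RLE factors too (-0.17, adjusted p = 0.0502). At 1 h the call was lost without replicate 2 or 3 of bicuculline or of water (adjusted p from 0.0627 to 0.109), and at 4 h without replicate 1 or 3 of bicuculline (adjusted p = 0.0501 and 0.112). Eif2s2, the beta subunit, went from 63.8, 67.3 and 70.3 CPM with water to 91.6, 86.8 and 87.2 CPM at 4 h in DMSO (0.40 ± 0.06, adjusted p = 1.97e-05; 0.12, adjusted p = 0.25 with plain library totals) and rose by 0.54 ± 0.07 (adjusted p = 3.02e-06) under MM401. The sex-linked gamma subunit genes Eif2s3x and Eif2s3y were not called in the 4 comparisons (-0.05 to 0.09), although plain library totals called Eif2s3y lower at 1 h in DMSO (-0.22, adjusted p = 0.038) and Eif2s3x lower at 4 h in DMSO and at 1 h under MM401 (-0.28, adjusted p = 0.00609; -0.26, adjusted p = 0.0134).

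Of the 4 eIF2alpha kinase genes, 2 rose and 0 fell at 1 h in DMSO and 2 and 1 at 4 h. Under MM401 1 rose and 0 fell at 1 h and 3 and 1 at 4 h. Over all genes 20% rose and 24.5% fell, 23.7% and 25.5%, 18.1% and 21.8%, and 23% and 21.7% in the same order. Eif2ak3 was called higher in all 4 comparisons, and Eif2ak4 in all but that at 1 h under MM401. Eif2ak3 encodes PERK, the kinase of the endoplasmic reticulum that responds to unfolded proteins, and lies at chr6:70844514-70905241 on the plus strand. In DMSO its level was 36.8, 35.1 and 39.5 CPM with water, 65.2, 64.2 and 68.1 CPM with bicuculline for 1 h, and 78.6, 82.3 and 82.7 CPM with bicuculline for 4 h. The 3 groups are fully apart and rank in that order. The rise on the log2 scale was 0.83 ± 0.06 (edgeR adjusted p = 3.96e-10) at 1 h and 1.13 ± 0.06 (adjusted p = 2.91e-12) at 4 h, the only change of at least 2-fold among members in DMSO against water. Under MM401 it read 38.5, 40 and 38.7 CPM with water for 1 h, 41 and 44.9 CPM with water for 4 h (n = 2), 71.1, 71.5 and 61.7 CPM with bicuculline for 1 h, and 76.1, 78.1 and 81.8 CPM with bicuculline for 4 h. The rise was 0.80 ± 0.06 (adjusted p = 6.95e-10) at 1 h and 0.87 ± 0.07 (adjusted p = 2.42e-09) at 4 h. Eif2ak4, for the amino acid sensor GCN2, rose later: it was at 89.7, 82.8 and 73.2 CPM with water in DMSO, 94.1, 101 and 99.1 CPM at 1 h and 121, 134 and 129 CPM at 4 h. Its log2 fold change was 0.26 ± 0.06 (adjusted p = 0.00191) at 1 h, lost with plain library totals (0.08, adjusted p = 0.266) and with a correction for gene length (0.10, adjusted p = 0.14), and 0.65 ± 0.06 (adjusted p = 2.12e-08) at 4 h. Under MM401 the 4 h rise was 0.49 ± 0.07 (adjusted p = 1.08e-05).

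The other eIF2alpha kinase genes followed no common course. Eif2ak2, which encodes the double-stranded RNA sensor PKR, was called under MM401 at 4 h (0.60 ± 0.12, edgeR adjusted p = 0.000308). In DMSO at 4 h its value of 0.22 was not called, but it was with RLE factors (0.25, adjusted p = 0.0375), DESeq2 (0.25, adjusted p = 0.0389), the replicate block (0.23, adjusted p = 0.0493) and in 2 fits without 1 library. Its libraries of MM401 with water for 4 h were the lowest of the series at 18.8 and 15.4 CPM (n = 2), against 20.5 to 26.1 CPM in DMSO with water and 24.1 to 28 CPM in the 2 groups with bicuculline for 4 h. Eif2ak1, for the heme-regulated kinase HRI, fell at 4 h in DMSO (-0.18 ± 0.07, adjusted p = 0.026) and under MM401 (-0.26 ± 0.07, adjusted p = 0.00681). The first call was lost with DESeq2 (-0.16, adjusted p = 0.053) and without replicate 1 or 2 of bicuculline for 4 h (-0.16, adjusted p = 0.089 and -0.15, adjusted p = 0.102) or replicate 1 of water (-0.14, adjusted p = 0.115). The second was lost without replicate 1 of MM401 with water for 4 h (-0.22, adjusted p = 0.076).

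**Figure D4:**
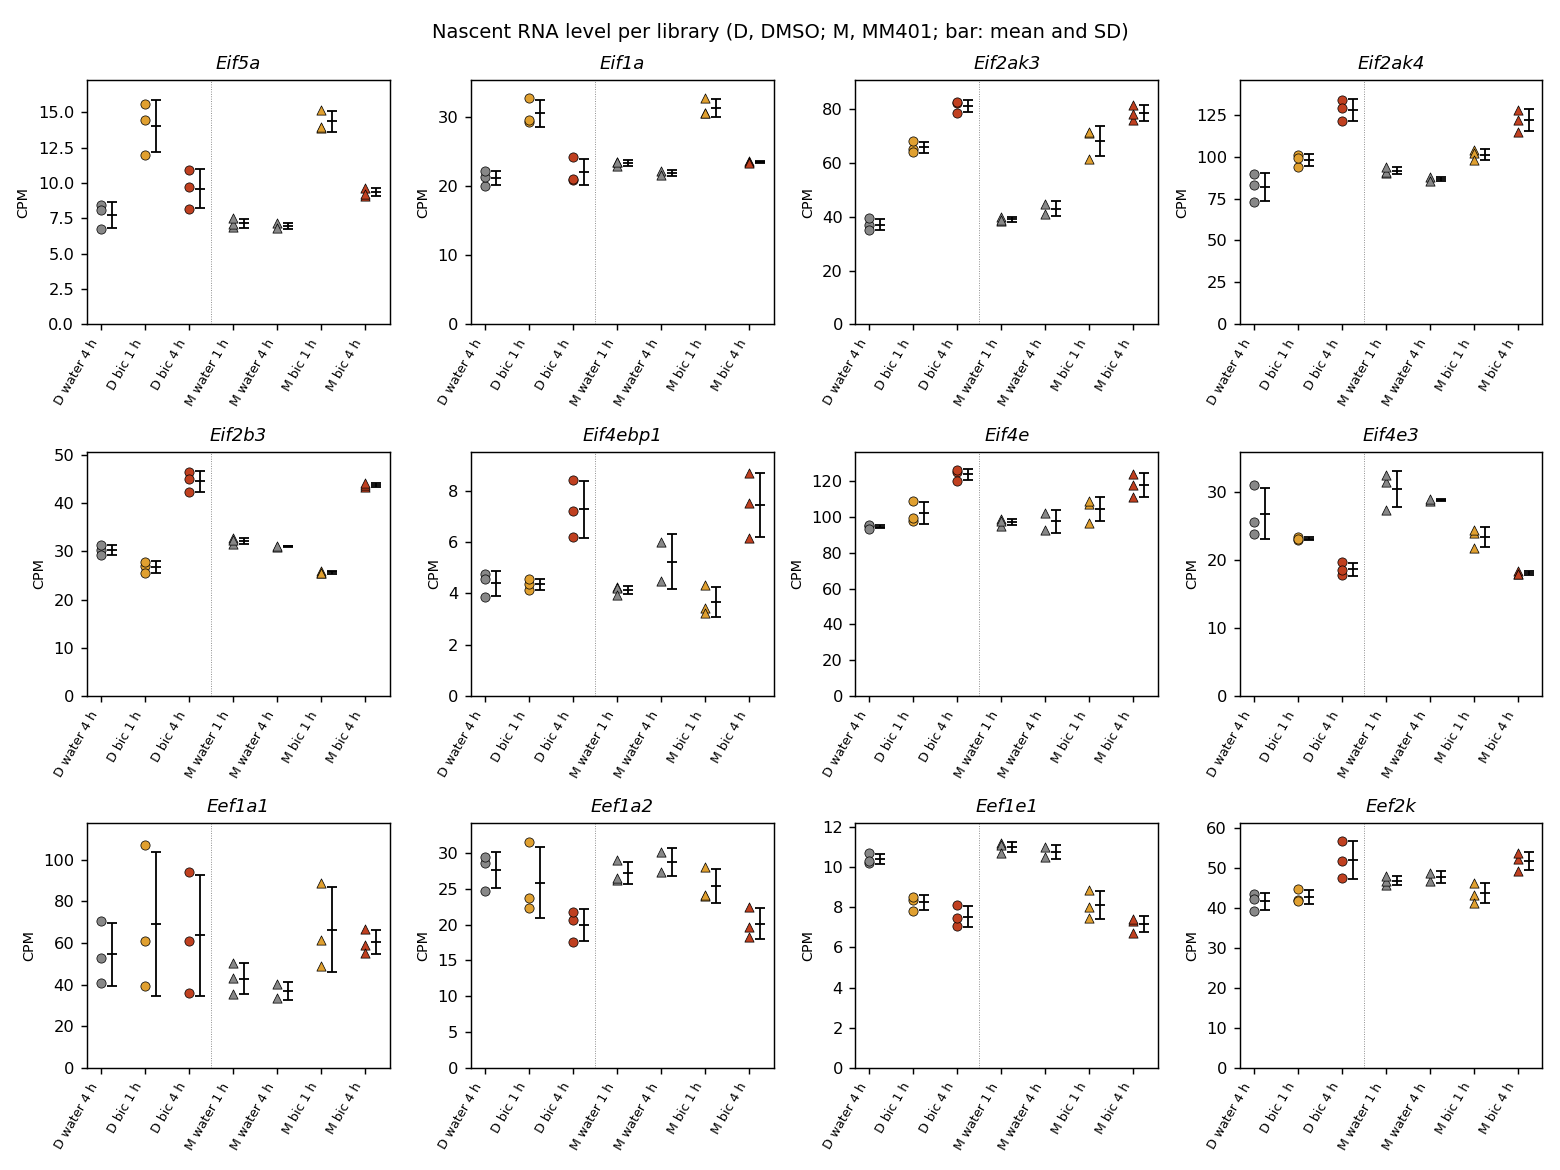
CPM of 12 members in each of the 20 libraries by group (D, DMSO, circles; M, MM401, triangles; bic, bicuculline; grey, water; yellow, 1 h; red, 4 h), with the mean and SD as bars and each axis starting at 0. Eif5a and Eif1a are highest at 1 h, Eif2ak3 is high at both times, Eif2b3 is lowest at 1 h and highest at 4 h, and Eef1a1 runs from 33.7 to 107 CPM with wide overlap between groups.

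The eIF3 complex is the scaffold on the small subunit. Eif3b was not called (-0.14 to -0.01), save lower in DMSO with plain library totals at both times (-0.34, adjusted p = 0.0109; -0.36, adjusted p = 0.00634) and in 2 fits without 1 library at 1 h. Of 12 tested, 1 rose and 5 fell at 1 h in DMSO, 0 and 3 at 4 h in DMSO, 0 and 3 at 1 h under MM401 and 0 and 2 at 4 h under MM401. The share that fell was 41.7%, 25%, 25% and 16.7%, beside 24.5%, 25.5%, 21.8% and 21.7% of all genes, and 20%, 23.7%, 18.1% and 23% of all genes rose. At 1 h in DMSO, leaving out 1 library gave 2 to 6 lower, with 2 without replicate 2 of DMSO with water for 4 h or replicate 1 of DMSO with bicuculline for 1 h and 3 without replicate 3 of the latter. At 4 h in DMSO it gave 2 to 5, the highest without replicate 1 of water. Eif3m, which encodes a peripheral subunit, fell in all 4 comparisons: it was at 29.2, 29.7 and 32.9 CPM in DMSO with water, 25.5, 21.4 and 23.3 CPM at 1 h and 25.8, 22.1 and 24 CPM at 4 h. The log2 fold changes were -0.39 ± 0.08 (edgeR adjusted p = 0.000489) and -0.35 ± 0.08 (adjusted p = 0.000948) in DMSO, and -0.44 ± 0.08 (adjusted p = 0.000178) and -0.33 ± 0.09 (adjusted p = 0.00473) under MM401. Eif3i, another small subunit gene, was called lower in the same 4, from -0.42 ± 0.13 (adjusted p = 0.01) at 1 h to -0.57 ± 0.13 (adjusted p = 0.000805) at 4 h in DMSO, and by -0.40 ± 0.13 (adjusted p = 0.0166) and -0.41 ± 0.14 (adjusted p = 0.0251) under MM401. Of these, the call at 4 h in DMSO alone held throughout. At 1 h in DMSO it was lost without replicate 2 of bicuculline (-0.35, adjusted p = 0.0524) and without replicate 3 of water (-0.31, adjusted p = 0.0852). Under MM401 it was lost in 2 fits without 1 library at 1 h and in 4 at 4 h (adjusted p up to 0.0749 and 0.11). Eif3k fell in DMSO at both times (-0.46 ± 0.13, adjusted p = 0.00737; -0.43 ± 0.13, adjusted p = 0.0107). Both calls were lost without replicate 2 of water (-0.32, adjusted p = 0.0728; -0.33, adjusted p = 0.0575) and without replicate 1 of bicuculline (-0.35, adjusted p = 0.0541; -0.33, adjusted p = 0.0671). The 1 h call in Eif3k was also lost with all 21 libraries (-0.44, adjusted p = 0.063). Eif3h was called higher (0.19 ± 0.05, adjusted p = 0.00607, at 1 h in DMSO), lost with a correction for gene length (0.04, adjusted p = 0.521), with plain library totals (0.00, adjusted p = 0.987) and with all 21 libraries (0.22, adjusted p = 0.317). Eif3d, named here because its call turns on the setting, was not called (0.19 at 1 h in DMSO and 0.20 at 1 h under MM401), but was called higher at 1 h in both arms with RLE factors, DESeq2, the replicate block and the length correction (adjusted p from 0.00519 to 0.0384).

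In the eIF4 group, Eif4e and its relative Eif4e3 moved in opposite directions at 4 h. Eif4e encodes the cap-binding protein that eIF4G anchors to the mRNA. It was at 94.9, 95.2 and 93.4 CPM in DMSO with water, 97.9, 99.5 and 109 CPM with bicuculline for 1 h and 125, 126 and 120 CPM for 4 h. All 3 libraries at 4 h lie above all others of that arm, a log2 difference of 0.39 ± 0.06 (edgeR adjusted p = 9.59e-06), against 0.11 ± 0.06 (adjusted p = 0.122) at 1 h, which DESeq2 called (0.15, adjusted p = 0.0424). Under MM401 it rose by 0.27 ± 0.07 at 4 h (adjusted p = 0.00209). The call was lost in DMSO with plain library totals (0.11, adjusted p = 0.159) and under MM401 without replicate 1 of water for 4 h (0.18, adjusted p = 0.111). Eif4e3, a relative that binds the cap without the usual contacts, was at 31, 25.6 and 23.8 CPM in DMSO with water, 23, 23.4 and 23.1 CPM at 1 h, and 17.8, 19.7 and 18.5 CPM at 4 h. In the MM401 arm it was at 31.5, 32.5 and 27.4 CPM with water for 1 h, 28.7 and 29 CPM with water for 4 h (n = 2), 24, 24.5 and 21.8 CPM with bicuculline for 1 h, and 18.4, 18 and 17.9 CPM with bicuculline for 4 h. The libraries with bicuculline lie below those with water in both arms, with the lowest values at 4 h. Eif4e3 fell by 0.52 ± 0.08 (adjusted p = 1.78e-05) at 4 h in DMSO, by 0.38 ± 0.08 (adjusted p = 0.000723) at 1 h under MM401 and by 0.67 ± 0.09 (adjusted p = 3.54e-06) at 4 h under MM401. The 1 h value in DMSO (-0.21 ± 0.08, adjusted p = 0.0401) was lost in 3 settings and without any of 5 libraries, at most to -0.09 (adjusted p = 0.318) without replicate 1 of water.

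Of the 11 genes of eIF4F and its helicase cofactors tested, Eif4e and Eif4e3 included, 0 rose and 2 fell at 1 h in DMSO, 1 and 3 at 4 h, and under MM401 1 and 1 at 1 h and 2 and 4 at 4 h. Over all genes 20% rose and 24.5% fell, 23.7% and 25.5%, 18.1% and 21.8%, and 23% and 21.7% in the same order. Eif4a1, the main helicase of the complex, rose under MM401 at 1 h (0.29 ± 0.07, edgeR adjusted p = 0.00362; 0.07, adjusted p = 0.556 with plain library totals). In DMSO at 1 h it was called higher with the length correction (0.24, adjusted p = 0.0228) and without replicate 1 of bicuculline (0.22, adjusted p = 0.0142), and at 4 h lower with plain library totals (-0.33, adjusted p = 0.0036). Eif4a2, its neuron-rich relative, fell in DMSO at 1 h (-0.23 ± 0.07, adjusted p = 0.0107) and 4 h (-0.28 ± 0.07, adjusted p = 0.00244). Both calls were lost with a correction for gene length (-0.12, adjusted p = 0.16; -0.14, adjusted p = 0.112) and with all 21 libraries (-0.21, adjusted p = 0.433; -0.30, adjusted p = 0.231). The 1 h call in Eif4a2 was lost without any of 3 libraries too (adjusted p up to 0.0831). The scaffold genes Eif4g1 and Eif4g3 fell under MM401 at 4 h (-0.22 ± 0.09, adjusted p = 0.0443; -0.27 ± 0.08, adjusted p = 0.0103). Without replicate 1 of MM401 with water for 4 h the value of Eif4g1, whose groups overlap, was -0.08 (adjusted p = 0.585). Its call was also lost with all 21 libraries (-0.17, adjusted p = 0.38) and without replicate 1 (-0.18, adjusted p = 0.155) or 2 (-0.22, adjusted p = 0.0815) of bicuculline for 4 h. In DMSO at 4 h Eif4g3 was called lower with the length correction (-0.25, adjusted p = 5.97e-05) and with plain library totals (-0.29, adjusted p = 3.33e-05). Eif4g1 was called lower there with plain library totals (-0.44, adjusted p = 0.000472) and without replicate 3 of water (-0.23, adjusted p = 0.0324). Eif4g2 was not called (-0.16 to 0.11), save with plain library totals at 4 h in DMSO (-0.44, adjusted p = 0.00942). Eif4enif1, for a shuttling partner of eIF4E, fell under MM401 at 1 h (-0.23 ± 0.06, adjusted p = 0.00294; -0.22, adjusted p = 0.0618 with all 21 libraries). Among the genes of eIF4E-binding proteins, Eif4ebp1 rose at 4 h alone. It was at 3.85, 4.75 and 4.58 CPM in DMSO with water, 4.13, 4.38 and 4.55 CPM at 1 h and 7.23, 6.2 and 8.41 CPM at 4 h, a log2 fold change of 0.73 ± 0.14 (adjusted p = 0.000196) at 4 h. Under MM401 it rose by 0.51 ± 0.16 (adjusted p = 0.0124), a call lost without replicate 1 of water for 4 h (0.30, adjusted p = 0.259). It was also lost without replicate 3 of bicuculline for 4 h (0.39, adjusted p = 0.0695) and with plain library totals (0.44, adjusted p = 0.0534). Eif4ebp2, the form known for its role in neurons, fell under MM401 at 1 h (-0.26 ± 0.07, adjusted p = 0.00781; -0.18, adjusted p = 0.0734 without replicate 3 of bicuculline for 1 h) and at 4 h (-0.20 ± 0.08, adjusted p = 0.0469; -0.15, adjusted p = 0.177 without replicate 2 of bicuculline for 4 h). Neither call in Eif4ebp2 held with all 21 libraries (adjusted p = 0.202 and 0.0969). That at 4 h was also lost with no filter on low counts (-0.21, adjusted p = 0.0537), without replicate 1 of bicuculline for 4 h (-0.21, adjusted p = 0.0731) and without either water library (-0.22, adjusted p = 0.123 and -0.24, adjusted p = 0.083).

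Of the core elongation genes, Eef1a2 fell at 4 h. It encodes the eEF1A form that replaces Eef1a1 in mature neurons and lies at chr2:181141757-181157015 on the minus strand. In DMSO it read 24.7, 28.6 and 29.4 CPM with water, 23.7, 31.5 and 22.3 CPM with bicuculline for 1 h and 17.5, 20.7 and 21.8 CPM for 4 h. Under MM401 it read 26.2, 29 and 26.5 CPM with water for 1 h, 30.1 and 27.3 CPM with water for 4 h (n = 2), 24, 24.1 and 28.1 CPM with bicuculline for 1 h and 18.2, 19.7 and 22.5 CPM for 4 h. The 4 h libraries with bicuculline lie below every water library in both arms. The log2 fold change at 4 h was -0.46 ± 0.12 (edgeR adjusted p = 0.00264) in DMSO and -0.51 ± 0.13 (adjusted p = 0.00336) under MM401, against -0.09 and -0.10 at 1 h, which were not called. Without replicate 2 of DMSO with bicuculline for 1 h, the 1 h value in DMSO was -0.26 and was called (adjusted p = 0.0484). Eef1a1 spread widely between replicates. Its levels were 40.6, 70.6 and 52.6 CPM in DMSO with water, 39.2, 107 and 60.8 CPM with bicuculline for 1 h and 35.8, 94.1 and 60.8 CPM for 4 h. In each DMSO group replicate 2 is highest and replicate 1 lowest, and the groups overlap. Under MM401 its levels were 50.2, 35.4 and 43 CPM with water for 1 h, 40.1 and 33.7 CPM with water for 4 h (n = 2), 48.7, 61.5 and 88.7 CPM with bicuculline for 1 h and 59.2, 66.5 and 55.2 CPM for 4 h, where the 4 h groups alone do not overlap. None of the 4 responses was called (0.22 to 0.71, with SE of 0.38 to 0.44), and the interval of the 1 h response in DMSO ran from -0.48 to 1.16. Eef1b2, for another subunit of the exchange complex, also varied between replicates and was not called (-0.20 to 0.68). It was at 9.45, 20.2 and 12.6 CPM in DMSO with water, 9.54, 19.4 and 7.71 CPM at 1 h and 7.83, 19.8 and 12.5 CPM at 4 h, with overlap. Under MM401 it was at 8.54, 8.99 and 8.99 CPM with water for 1 h, 9.48 and 7.01 CPM with water for 4 h (n = 2), 9.3, 12.6 and 19.6 CPM with bicuculline for 1 h and 11.8, 18 and 10.1 CPM for 4 h. There the groups do not overlap at either time.

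The exchange complex genes Eef1b2, Eef1d and Eef1g were listed together with Eef1e1. Of these 4 genes, 2 fell at 1 h and 3 at 4 h in DMSO, and 3 and 2 under MM401, with Eef1e1 among them each time. In each comparison 0 of the 4 rose. Over all genes, 24.5%, 25.5%, 21.8% and 21.7% fell in the same order. Eef1g, the structural gamma subunit, was at 30.2, 31.7 and 32.9 CPM in DMSO with water, 27.5, 27.6 and 28.2 CPM at 1 h and 24.7, 23.5 and 24.9 CPM at 4 h. The 3 groups do not overlap, and Eef1g fell by 0.19 ± 0.06 (edgeR adjusted p = 0.00962) at 1 h and by 0.38 ± 0.06 (adjusted p = 1.03e-05) at 4 h. The smaller of these was lost with a correction for gene length (-0.10, adjusted p = 0.217), without replicate 2 (-0.16, adjusted p = 0.0617) or 3 (-0.14, adjusted p = 0.0806) of water and with all 21 libraries (-0.17, adjusted p = 0.225). Under MM401 it fell by 0.33 ± 0.06 (adjusted p = 8.62e-05) and by 0.43 ± 0.06 (adjusted p = 1.15e-05). Eef1e1, a scaffold of the multi-tRNA synthetase complex with homology to eEF1B, fell in all 4 comparisons. It was at 10.2, 10.7 and 10.3 CPM in DMSO with water, 8.38, 7.83 and 8.51 CPM at 1 h and 7.06, 8.09 and 7.45 CPM at 4 h, so that every bicuculline library was below every water library. Its log2 fold changes were -0.33 ± 0.08 (adjusted p = 0.00181) and -0.46 ± 0.08 (adjusted p = 6.04e-05) in DMSO, and -0.43 ± 0.08 (adjusted p = 0.00019) and -0.59 ± 0.09 (adjusted p = 1.8e-05) under MM401. Eef1d, the delta exchange subunit, fell at 4 h in DMSO (-0.27 ± 0.09, adjusted p = 0.0198) and at 1 h under MM401 (-0.38 ± 0.09, adjusted p = 0.00217). The call in DMSO was lost with the length correction (-0.19, adjusted p = 0.059) and without replicate 1 of bicuculline for 4 h (-0.20, adjusted p = 0.108). It was also lost with all 21 libraries (-0.29, adjusted p = 0.099) and without replicate 3 of water (-0.23, adjusted p = 0.0544). Eef2, the translocase, ran the other way where it was called, rising under MM401 at 1 h from 13.9, 14.1 and 16.6 CPM to 19.1, 19.4 and 25.5 CPM (0.52 ± 0.18, adjusted p = 0.0305). That call was lost with plain library totals (0.31, adjusted p = 0.25), with all 21 libraries, with no filter and without any of 3 libraries (adjusted p up to 0.125, without replicate 3 of bicuculline for 1 h). In DMSO its water libraries read 13.8, 20.9 and 20.4 CPM and Eef2 was not called at either time (0.25 and 0.09), but with the length correction it was at 1 h (0.37, adjusted p = 0.037). DESeq2 called it higher under MM401 at 4 h (0.40, adjusted p = 0.0495).

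Among the enzymes that modify elongation factors, Eef2k, the kinase that inactivates eEF2, rose at 4 h in DMSO, from 43.5, 39.4 and 42.4 CPM to 51.7, 47.6 and 56.9 CPM (0.32 ± 0.06, edgeR adjusted p = 0.000244). With plain library totals the difference was 0.05 (adjusted p = 0.621). Under MM401 the 4 h difference was 0.12 ± 0.07 and was not called (adjusted p = 0.196). Eef1akmt3 and Eef1akmt4-ece2 formed the extremes of the elongation class at 1 h, at low levels. Eef1akmt3, a lysine methyltransferase gene, was at 1.44, 1.17 and 1.49 CPM in DMSO with water, 0.841, 0.709 and 0.808 CPM at 1 h and 1.73, 1.71 and 1.59 CPM at 4 h. It fell by 0.80 ± 0.17 (adjusted p = 0.000814) at 1 h in DMSO and by 0.79 ± 0.18 (adjusted p = 0.00123) under MM401, and was not called at 4 h (0.30 and -0.17), save in DMSO with the length correction (0.44, adjusted p = 0.0356). The readthrough gene Eef1akmt4-ece2 went from 1.88, 1.64 and 1.81 CPM to 3.23, 2.74 and 3.15 CPM at 1 h in DMSO (0.78 ± 0.14, adjusted p = 0.000157), with a like rise under MM401 (0.76 ± 0.15, adjusted p = 0.000262). Eef2kmt, for a methyltransferase of eEF2, rose under MM401 at 4 h (0.52 ± 0.17, adjusted p = 0.015). That call was lost with plain library totals (0.44, adjusted p = 0.0686) and without replicate 1 of water for 4 h (0.42, adjusted p = 0.136). At 1 h under MM401 it was not called (0.35, adjusted p = 0.0638), but was with RLE factors, DESeq2, the replicate block and the length correction (adjusted p from 0.017 to 0.0389). Eef2kmt shares 6.39% of its span with Alg1 on the opposite strand.

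Between 1 h and 4 h of bicuculline, 12 members rose and 7 fell in DMSO, where 34.2% of all genes were called (19.1% higher and 15.2% lower). Under MM401 11 rose and 8 fell, where 33.6% of all genes were called (17.5% higher and 16% lower). These comparisons use the same bicuculline libraries as those above, so they restate the course over time and add no separate evidence. Plain library totals turned the split to 7 and 11 in DMSO and to 11 and 5 under MM401, with a median of all members of -0.07 and 0.11 against -0.07 and 0.10 over all genes. Of the initiation genes 9 rose and 4 fell in DMSO and 9 and 6 under MM401, and of the elongation genes 3 and 3 and 2 and 2. Eef1akmt3 rose most in DMSO (1.10 ± 0.17, edgeR adjusted p = 3.05e-05), followed by Eif4ebp1 (0.75 ± 0.14, adjusted p = 0.000255) and Eif2b3 (0.74 ± 0.05, adjusted p = 5.42e-10). Under MM401 Eif4ebp1 rose most (1.03 ± 0.15, adjusted p = 9.34e-06), with Eif2b3 (0.77 ± 0.05, adjusted p = 4.56e-10) and Eef1akmt3 (0.76 ± 0.18, adjusted p = 0.0021) next. The largest falls in both arms were those of Eef1akmt4-ece2 (-0.67 ± 0.14, adjusted p = 0.000871; -0.60 ± 0.14, adjusted p = 0.00274), Eif5a (-0.54 ± 0.11, adjusted p = 0.000343; -0.62 ± 0.11, adjusted p = 9.56e-05) and Eif1a (-0.47 ± 0.07, adjusted p = 6.62e-06; -0.42 ± 0.07, adjusted p = 3.25e-05). Each of these calls held in all 7 settings and without any 1 library. Eif3c, named here because its call turns on the setting, was not called in either arm (0.38 and 0.34). With the replicate block it was called higher in DMSO (0.38, adjusted p = 0.0161) and under MM401 (0.35, adjusted p = 0.0271). Eif6, for a factor that keeps the ribosomal subunits apart, rose by 0.37 ± 0.12 (adjusted p = 0.0159) in DMSO and 0.49 ± 0.12 (adjusted p = 0.0022) under MM401. The call in DMSO was lost with all 21 libraries (0.33, adjusted p = 0.122), with plain library totals (0.28, adjusted p = 0.15) and without any of 3 libraries (adjusted p up to 0.0834). In water, 4 h against 1 h under MM401 (n = 2 and 3), no member was called by edgeR or DESeq2, with 2 and 4 at an unadjusted p under 0.05, where edgeR called 0.867% of all genes. Of all 16959 genes, 1699 had an unadjusted p under 0.05 by edgeR and 1643 by DESeq2, which called 275.

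MM401 was compared with DMSO to ask how these genes depend on MLL1, and no member was called by edgeR in any such comparison. In water at 4 h (n = 2 and 3), where 0.0826% of all genes were called, 5 members had an unadjusted p under 0.05 by edgeR and 5 by DESeq2, which called 0. In bicuculline at 1 h, where 0.0059% of all genes were called, 3 had an unadjusted p under 0.05, and DESeq2 called Eef1g, named here because it was that call (-0.32, adjusted p = 0.000964; edgeR -0.31 ± 0.06, adjusted p = 0.0864). Its libraries were at 23, 23.1 and 21 CPM with MM401 and 27.5, 27.6 and 28.2 CPM with DMSO, without overlap. In bicuculline at 4 h, where 0% of all genes were called, 2 members had an unadjusted p under 0.05 by either tool and DESeq2 called 0. Eef1g again had the smallest p, with 21.2, 19.8 and 21.2 CPM against 24.7, 23.5 and 24.9 CPM (-0.23 ± 0.06, edgeR adjusted p = 0.639). The difference of the bicuculline responses, MM401 minus DMSO, was called for no member at 4 h (6 at an unadjusted p under 0.05 by each tool, 0% of all genes called) or at 1 h (2 by each tool, 0% of all genes called, both arms then set against water at 4 h). DESeq2 called 0 members in both. The shares of all genes called here are those of edgeR. Of all 16959 genes, 2194 had an unadjusted p under 0.05 by edgeR in water at 4 h. In bicuculline these were 540 at 1 h and 1309 at 4 h, and for the difference of responses 2552 at 4 h and 1326 at 1 h. DESeq2 gave 2240, 486, 1328, 2684 and 1346, and called 162, 14, 7, 436 and 5 genes, in the same order. Without replicate 1 of DMSO with water for 4 h, edgeR called Eif1 (-0.41, adjusted p = 0.0339) and Eif2ak2 (-0.44, adjusted p = 0.0339) between MM401 and DMSO in water, and Eif1 (0.55, adjusted p = 0.0269) and Eif4g3 (-0.33, adjusted p = 0.0421) in the 4 h difference of responses. In the fit of 20 libraries, where neither gene was called, that difference over all genes had a median of 0.33 in genes under 5 kb, the class of Eif1. It was -0.20 in genes over 100 kb, the class of Eif4g3. The part of gene span in the calls made without replicate 1 was not tested. For Eif5a the 95% interval of MM401 minus DMSO was -0.19 to 0.26 in bicuculline at 1 h and -0.28 to 0.19 at 4 h. The interval for Eif2ak3 was -0.08 to 0.18 at 1 h and -0.18 to 0.08 at 4 h, and that for Eef1a2 -0.28 to 0.23 and -0.25 to 0.26. A missed threshold does not show that the arms act alike, and differences within these intervals remain possible.

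Genes that act on these factors or beside them were taken from 5 lists written from general knowledge. Beside their counts, 20% of all genes rose and 24.5% fell at 1 h in DMSO, 23.7% and 25.5% at 4 h, 18.1% and 21.8% at 1 h under MM401 and 23% and 21.7% at 4 h. No difference of a list from these shares was tested. Of 16 genes of mTORC1 and MNK signalling, 4 rose and 5 fell at 1 h and 5 and 5 at 4 h in DMSO, and 3 and 1 and 4 and 3 under MM401. Rheb, the GTPase that activates mTORC1, rose by 1.74 ± 0.08 (edgeR adjusted p = 3.07e-13) at 1 h and 1.37 ± 0.08 (adjusted p = 1.31e-11) at 4 h in DMSO. Mknk2, an eIF4E kinase gene, rose by 1.30 ± 0.09 (adjusted p = 2.16e-10) and 0.71 ± 0.09 (adjusted p = 1.51e-06), while Mlst8, an mTOR partner, fell by 0.50 ± 0.16 (adjusted p = 0.0131) and 0.65 ± 0.16 (adjusted p = 0.00183). Among 11 poly(A)-binding and cap-linked repressor genes the counts were 4 and 2, 3 and 2, 4 and 4, and 2 and 3 in the same order. Pabpc4, for an inducible poly(A)-binding protein, rose by 0.63 ± 0.07 (adjusted p = 2.43e-07) and then 1.35 ± 0.07 (adjusted p = 1.3e-12) in DMSO, and Fmr1, for a repressor of translation at synapses, by 0.63 ± 0.07 (adjusted p = 1.77e-07) and 0.83 ± 0.07 (adjusted p = 1.73e-09).

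The 10 genes of integrated stress response effectors, which lie downstream of the eIF2alpha kinases, and of eIF2alpha phosphatase subunits gave 2 that rose and 2 that fell at 1 h in DMSO, 5 and 0 at 4 h, 5 and 1 at 1 h under MM401 and 6 and 0 at 4 h, where 20%, 23.7%, 18.1% and 23% of all genes rose. Ppp1r15a, the inducible phosphatase subunit GADD34, rose in all 4 (0.37 to 0.93, edgeR adjusted p from 2.08e-05 to 0.0305). Chac1, a stress-induced glutathione-degrading enzyme, fell by 0.70 ± 0.10 at 1 h in DMSO (adjusted p = 9.79e-06) and rose by 0.43 ± 0.10 (adjusted p = 0.000918) at 4 h. Both values are against water at 4 h, and in water alone Chac1 rose between 1 h and 4 h under MM401 (0.56 ± 0.11, adjusted p = 0.0178). Against water at 1 h in that arm, its 1 h value was -0.08 and was not called (adjusted p = 0.598). Trib3 had the lowest value of the list at 1 h in both arms. It stood at -0.70 in DMSO, and at -0.48 under MM401 against water at 1 h. Atf4, the central transcription factor of the response, was not called in DMSO (0.22 and 0.13) and rose under MM401 by 0.61 ± 0.12 (adjusted p = 0.000305) and 0.57 ± 0.13 (adjusted p = 0.00168). The difference of these responses, MM401 minus DMSO, was not called for Atf4 (0.39, adjusted p = 0.597 at 1 h; 0.44, adjusted p = 0.269 at 4 h) or any of the 10 genes. In water at 4 h Atf4 stood at -0.30 in MM401 against DMSO (adjusted p = 0.334). The 9 genes of termination and recycling tested of 11 listed gave 2 and 2, 1 and 3, 2 and 2, and 1 and 3, where 24.5%, 25.5%, 21.8% and 21.7% of all genes fell. Etf1, the release factor eRF1, was higher at 1 h in DMSO (0.48 ± 0.05, adjusted p = 3.54e-07) and not called at 4 h (0.13 ± 0.05, adjusted p = 0.0535). The 10 mitochondrial translation factor genes tested of 11 listed gave 0 that rose and 9, 9, 9 and 6 that fell in these 4 comparisons, against the same shares of all genes. From 1 h to 4 h of bicuculline 1 fell in DMSO and 2 rose under MM401, where 15.2% of all genes fell and 17.5% rose. Their median log2 fold change was -0.40 and -0.34 in DMSO and -0.34 and -0.31 under MM401, beside -0.04, -0.02, -0.00 and 0.02 over all genes. Tsfm, the mitochondrial counterpart of eEF1B, fell by 0.58 ± 0.10 (adjusted p = 0.000133) and 0.57 ± 0.10 (adjusted p = 0.000114) in DMSO, and Mtif2, the mitochondrial initiation factor, by 0.52 ± 0.07 (adjusted p = 4.39e-06) and 0.37 ± 0.07 (adjusted p = 0.000201).

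The response of all genes varied with gene span, which bears on a class of short genes. Over all genes of 5 to 10 kb the median log2 fold change in DMSO was -0.21 at 1 h and -0.21 at 4 h, and over those of more than 100 kb it was 0.20 at 1 h. The 12 members of 5 to 10 kb had medians of -0.28 and -0.09, and the 19 of 10 to 20 kb -0.12 and -0.07, beside -0.15 and -0.13 over all genes of that span. Under MM401 the medians of the 5 to 10 kb class were -0.16 and -0.02 for members and -0.10 and -0.02 over all genes. The 7 members under 5 kb had medians of -0.11 and -0.04 in DMSO (-0.18 and -0.16 over all genes) and of 0.21 and 0.30 under MM401 (0.03 and 0.14 over all genes). After a correction for gene length, chosen after seeing the data, 10 members rose and 16 fell at 1 h in DMSO and 16 and 16 at 4 h, and 13 and 16 and 13 and 15 under MM401. Over all genes, the correction gave 7483 and 8075 calls in DMSO and 6645 and 8079 under MM401. The falls in Eef1e1, Eif3m and Eif4e3 at 4 h in DMSO and the rises in Eif2ak3, Eif2ak4, Eif2b3 and Eif4ebp1 there were called with it too.

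**Figure D5:**
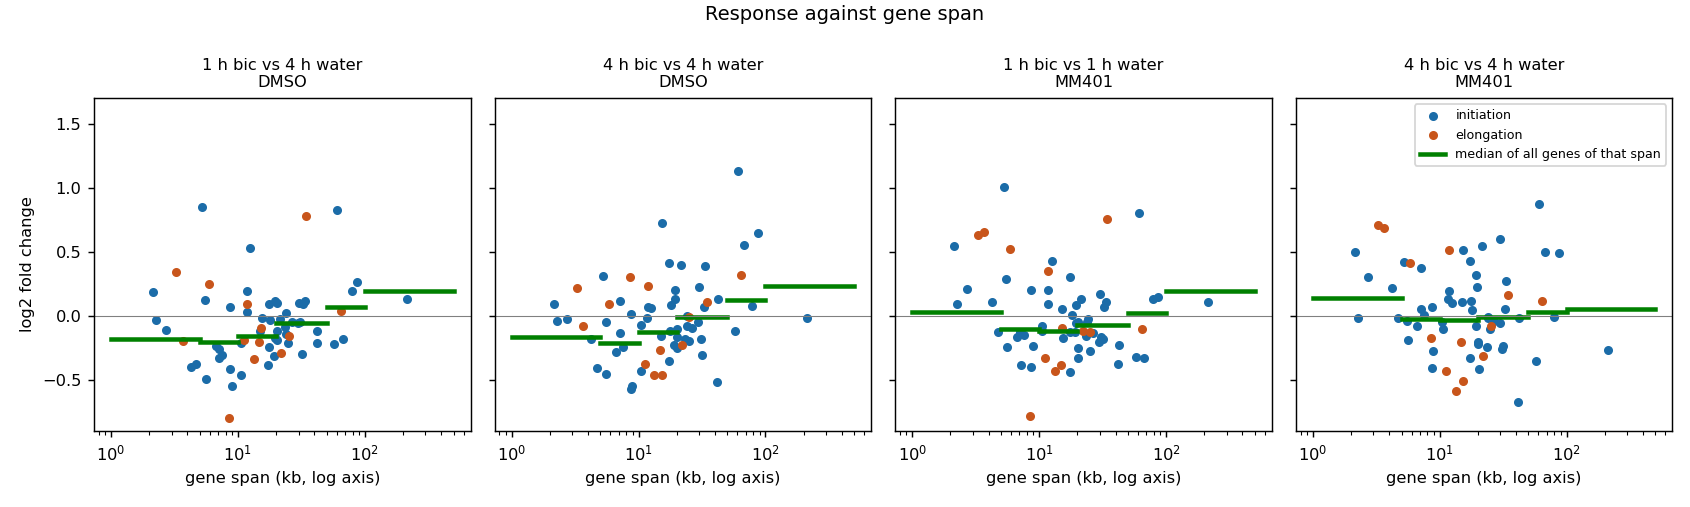
Log2 fold change of the tested members against gene span (log axis, kb) in the 4 comparisons of bicuculline with water, initiation genes in blue and elongation genes in orange; green bars are the median of all genes in each span class, with the outer bars covering genes under 5 kb and over 100 kb. In DMSO at 1 h the green bars lie between -0.21 and -0.15 for genes under 20 kb and above 0 for those over 50 kb, and most members lie between 5 and 50 kb.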

How the data were processed

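The authors deposited a table of whole-number read counts per gene, with each gene's start, end and length, in the layout of featureCounts, per the file headers. The lengths are those of whole gene spans. Bowtie2, UMI-tools, featureCounts, DESeq2, deepTools and the build mm10 are named in the submitters' processing notes, without a role. Strand setting, and the handling of reads with several positions, are not given in the sources used here. The counts include introns, so long genes contribute more.

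All 7 groups were fitted together with edgeR 4.0.16 (R 4.3.3, limma 3.58.1): filterByExpr (count minimum 10, total minimum 15), TMM scaling, the robust quasi-likelihood test for 12 comparisons, and Benjamini-Hochberg adjustment over 16959 genes at 0.05. CPM use the TMM-scaled total. Totals of 49886348 to 87939384 counts set the depth. MM401 with water for 4 h had 2 libraries. Intervals are 95%. The members and gene lists were chosen with earlier results of these data known. Named by rule were 24 core members, up to 5 called members of largest change per direction and comparison, the ends of ranges, members too low to test or overlapping another gene, and up to 3 called genes per direction of each pathway list; Eif2s3x, Eif2s3y, Eif3g, Eif3h, Eif4b and Eef1akmt1, where outside it, were chosen after their values were seen. P-values measure the spread between these libraries, which the study's text calls biological replicates.

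The test was checked on simulated counts with known changes. Alternatives were all 21 libraries, RLE factors, plain totals, no filter, a replicate block, DESeq2 1.42.0, leaving out each library, and a gene length correction chosen after seeing the data. Same-numbered libraries deviated together in part: of 57 correlations 36 were over 0.1 (median 0.147, from -0.412 to 0.458). Among the comparisons made, all 3 were over 0.1 for 4 h against 1 h of bicuculline under MM401 and for MM401 against DMSO in bicuculline at 4 h. Upstream sequences came from RefSeq tables (GRCm38.p6).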

Additional observations from a re-analysis of the deposited data

How the results depend on the processing

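The value of Eif5 turned with plain library totals. At 4 h in DMSO it became -0.26 and was called lower (edgeR adjusted p = 0.017), where the main fit did not call it and the length correction called it higher (0.15). At 1 h under MM401, where the main fit called it, it became -0.01. Of 390 results (65 members in 6 comparisons), 144 were called. Of these, 40 lost their call with all 21 libraries, 26 with plain totals, 14 with the length correction, 12 with DESeq2, 9 with RLE factors and 5 with no filter. Calls were gained by 53 with plain totals, 24 with the length correction, 16 with DESeq2 and 11 with RLE factors. The replicate block lost none and gained 13. With the block, 29, 30 and 30 members were called for bicuculline in DMSO at 1 h and 4 h and under MM401 at 1 h. Over all genes it called 8035, 8782 and 7291. Where the numbers paired the libraries the block gave 20 members for 4 h against 1 h under MM401 and 0 for MM401 against DMSO in bicuculline at 4 h. Over all genes it gave 6129 and 0 there.

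The number of all genes called moved with the settings. It was 5223 with all 21 libraries for DMSO at 1 h (7557 in the main fit) and 9687 with plain totals for DMSO at 4 h (8344). For MM401 against DMSO in bicuculline at 1 h it was 14 with DESeq2 (1 in the main fit). The count of members called became 14 with all 21 libraries for DMSO at 1 h, 44 with plain totals for DMSO at 4 h, and 1 with DESeq2 for MM401 against DMSO in bicuculline at 1 h. Leaving out 1 library gave 14 to 26 and 20 to 28 for DMSO and 22 to 24 and 16 to 25 for MM401 (1 h and 4 h). It gave 16 to 20 and 17 to 20 for 4 h against 1 h in DMSO and under MM401, 0 to 2 for MM401 against DMSO in water and for the 4 h difference of responses, and 0 in the other 4 comparisons.

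With plain totals the initiation medians were -0.294 and -0.322 in DMSO, -0.275 and -0.084 under MM401, and -0.073 and 0.132 for 4 h against 1 h. The elongation medians were -0.345 and -0.279 in DMSO, -0.316 and -0.156 under MM401, and -0.001 for 4 h against 1 h under MM401. For elongation under MM401 at 4 h, the median was -0.118 with all 21 libraries, -0.091 with RLE factors and with DESeq2, -0.1 with the length correction and -0.203 over members that overlap no other gene. That last restriction gave -0.23 for elongation at 4 h in DMSO and 0.054 for initiation under MM401 at 4 h. For initiation, 4 h against 1 h in DMSO gave -0.032 with all 21 libraries, -0.006 with RLE factors and with DESeq2, and 0.019 with the length correction, which gave -0.005 at 4 h in DMSO. The cause of these shifts was not tested.

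Without 1 library at a time, the initiation medians ran from -0.11 to -0.036 and -0.086 to -0.027 in DMSO, -0.148 to -0.001 and -0.017 to 0.027 under MM401, and -0.041 to 0.042 and 0.016 to 0.092 for 4 h against 1 h. The elongation medians ran from -0.183 to 0.018 and -0.177 to 0.134, -0.108 to -0.066 and -0.116 to -0.076, and -0.163 to 0.026 and -0.089 to 0.055. The 4 h comparisons under MM401 rest on 2 water libraries.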
